A study of Mus musculus with 12 samples.

Results

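Expression of 10 genes of the p53 response and of growth arrest was followed in differentiating mouse bone marrow stromal cells: Cdkn1a, Cdkn2a, Cdkn2b, Mdm2, Ccng1, Trp53inp1, Phlda3, Bax, Gdf15 and Sesn1. They were taken by gene symbol from a table of 23955 symbols, in which each had 1 row, and 9 of the 10 were among the 12323 genes with enough counts to be tested. Gdf15 was not. The cells were a commercial stock of bone marrow-derived mesenchymal stem cells from female C57BL/6 mice, used at passage 9 to 10, and the number of donor animals was not stated. All cultures were grown to confluence and then given the same induction mixture of dexamethasone (1 uM), insulin (5 ug/mL) and isobutylmethylxanthine (0.5 mM), for 14 days. The DMSO group received the vehicle (0.1%), the ROSI group 500 nM rosiglitazone, a thiazolidinedione that activates the nuclear receptor PPARγ, and the TBT group 50 nM tributyltin, an organotin pollutant that binds RXR and PPARγ. Whether the ROSI and TBT cultures also carried DMSO was not stated. The ligand doses differed, so values for ROSI and TBT side by side compare these treatments and not equal doses. Each group had 4 sequencing libraries. The labels do not say whether these came from separate cultures, so p-values measure the spread between libraries, which may be technical.

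The p53 protein is a transcription factor that is stabilised by DNA damage and other stresses. Its targets include inhibitors of the cell cycle, genes of cell death, stress-response enzymes and Mdm2, the ubiquitin ligase that returns p53 to low levels. Cdkn1a encodes p21, an inhibitor of cyclin-dependent kinases (CDKs) that is transcribed both downstream of p53 and independently of it. The Cdkn2a locus gives p16, which inhibits CDK4 and CDK6, and p19Arf, which inhibits Mdm2. Its neighbour Cdkn2b gives p15, another CDK4 and CDK6 inhibitor. Preadipocytes leave the cell cycle as they become adipocytes.

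p53 binds DNA at pairs of 10-base elements. The 250 bases before each annotated RefSeq transcription start (build GRCm38.p6) were searched on both strands for the 10-base p53 response element consensus, which is given here by name because it holds degenerate letters. Windows were found for 9 of the 10 genes, and Trp53inp1 had none in the table. Of the 13 windows of these 9 genes, 5 held a match, each from a different gene, against 7.13% of all 32851 windows. The 5 sequences are printed because they place the match before Cdkn1a, Mdm2, Ccng1, Bax and Sesn1. Capitals mark the matches, each line runs 5′ to 3′ on the gene's strand, and its last base lies just before the start.
Cdkn1a, upstream start: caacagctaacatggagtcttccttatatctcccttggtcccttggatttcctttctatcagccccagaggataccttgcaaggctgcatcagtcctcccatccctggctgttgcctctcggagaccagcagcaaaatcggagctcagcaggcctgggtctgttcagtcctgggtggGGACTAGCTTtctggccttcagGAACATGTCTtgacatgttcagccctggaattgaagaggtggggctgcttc
Mdm2: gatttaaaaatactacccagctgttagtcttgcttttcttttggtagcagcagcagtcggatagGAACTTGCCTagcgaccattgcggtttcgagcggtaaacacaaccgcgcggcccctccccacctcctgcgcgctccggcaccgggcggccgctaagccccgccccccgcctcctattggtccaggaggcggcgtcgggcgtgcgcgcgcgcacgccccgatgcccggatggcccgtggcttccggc
Ccng1: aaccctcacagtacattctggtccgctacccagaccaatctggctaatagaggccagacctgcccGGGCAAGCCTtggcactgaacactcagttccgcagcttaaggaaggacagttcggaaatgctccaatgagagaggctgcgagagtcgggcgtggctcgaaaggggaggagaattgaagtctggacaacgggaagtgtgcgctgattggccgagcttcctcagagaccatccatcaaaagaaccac
Bax: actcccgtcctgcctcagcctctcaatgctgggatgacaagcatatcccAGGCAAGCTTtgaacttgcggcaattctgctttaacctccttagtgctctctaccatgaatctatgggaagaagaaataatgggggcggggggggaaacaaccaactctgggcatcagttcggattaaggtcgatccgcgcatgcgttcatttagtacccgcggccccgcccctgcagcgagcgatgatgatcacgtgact
Sesn1, downstream start: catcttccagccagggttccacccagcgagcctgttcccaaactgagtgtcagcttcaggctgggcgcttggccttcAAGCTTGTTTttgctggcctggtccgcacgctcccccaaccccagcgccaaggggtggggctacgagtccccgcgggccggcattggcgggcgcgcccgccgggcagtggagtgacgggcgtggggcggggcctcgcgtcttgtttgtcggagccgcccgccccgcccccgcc

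The window of the upstream Cdkn1a start (chr17:29090729-29090978, plus strand) held 2 matches, beginning 73 and 51 bases before the start. They lay 12 bases apart, and only 0.0639% of all windows (21 windows) held a pair at most 13 bases apart. The Mdm2 window (chr10:117710759-117711008, minus strand) held a single match beginning 186 bases before the start. The Ccng1 window (chr11:40755287-40755536, minus strand) held one beginning 185 bases before it. The Bax window (chr7:45466899-45467148, minus strand) held one at 201 bases. The window of the downstream Sesn1 start (chr10:41887189-41887438, plus strand) held one at 173 bases. A match is a description of these letters, and binding was not tested here. Only exact matches were marked, so an adjoining element with a mismatch was left unmarked. The stretch tgacatgttc, right after the second Cdkn1a match, is such a case. The window of the downstream Cdkn1a start held no match. Neither start of Cdkn2a, the upstream one for p19Arf and the downstream one for p16, had a match in its window.

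**Figure D1:**
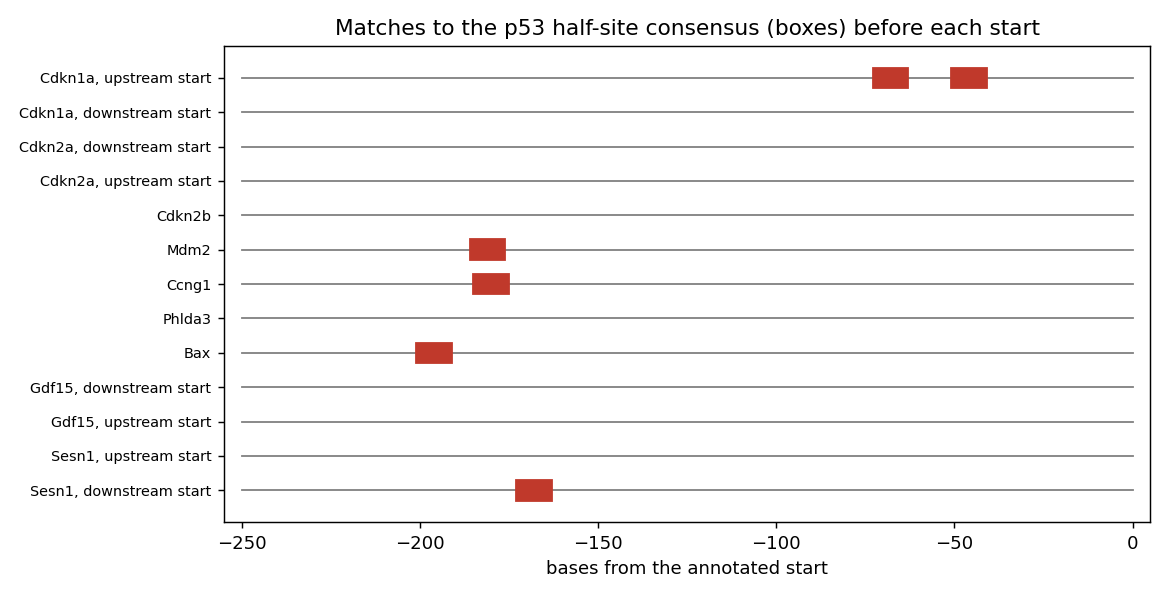
Position of the 10-base p53 consensus matches (boxes) in the 250 bases before each annotated start of 9 of the genes (horizontal axis, bases from the start; 1 line per window). The upstream Cdkn1a start is the only window of the 13 with 2 boxes, at 73 and 51 bases before the start.

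The libraries held 4027152 to 7474654 counts. CPM values below are counts divided by the library total, in parts per 1000000, after scaling by the trimmed mean of M-values (TMM). The levels used as a measure of stray reads and the pooled Gdf15 values were divided by totals without this scaling. TBT replicate 4 and the other 3 TBT libraries differed: the 45S ribosomal RNA precursor Rn45s took 6.85% of the counts of TBT replicate 4 and 0.399% to 0.670% of those of TBT replicates 1 to 3. The shares were 2.64% to 6.18% in DMSO and 1.36% to 9.27% in ROSI, so that TBT replicate 4 lay within the range of the other groups and TBT replicates 1 to 3 lay below all 9 other libraries. GC-rich genes were lower relative to GC-poor genes in TBT replicates 1 to 3 (log2 differences of −0.47, −0.39 and −0.23) than in TBT replicate 4 (0.089), and this difference was −0.029 to 0.369 in the ROSI and DMSO libraries. TBT replicate 4 also had a mean correlation of 0.960 with its own group and of 0.969 with DMSO. For the members, and for counts in lists that it changes, values without TBT replicate 4 are given beside those of all libraries. In fits without it, every TBT library lies outside the ROSI and DMSO libraries in Rn45s share and in this GC difference. An effect of tributyltin and this difference between libraries cannot be told apart there. The part of GC content was not tested beyond a fit with GC-corrected offsets. Without TBT replicate 4, the 10 list genes other than Trp53 that are named for TBT against DMSO and the 30 named for TBT against ROSI kept their direction and call, and only the values of Cdk4 moved by over 1.5 times. With GC-corrected offsets, 8 of the 10 and 25 of the 30 did, and the exceptions are named with their lists. Summed CPM over 10 adipocyte markers ranged from 1057 to 2030 in DMSO, 4390 to 5814 in ROSI and 2235 to 3357 in TBT. Over 8 stromal markers, present in every group, the ranges were 3107 to 4146, 1397 to 1591 and 2437 to 3321. The adipocyte sums were made up mostly of Lpl and Fabp4, and Cfd (12.6, 7.08 and 3.35 CPM in DMSO, ROSI and TBT) and Lep were highest in DMSO, while Adipoq was at 10.7, 13.3 and 2.30 CPM. Of the stromal genes, Nt5e was not lowest in ROSI (5.64, 6.15 and 7.59 CPM), nor were Thy1, Cd44 and Eng. Of the adipocyte and stromal genes, Lep (19 counts) and Eng (21 counts over all libraries) were near 0. The osteoblast ranges (6 genes) were 217 to 272, 145 to 213 and 209 to 285, with the defining genes Ibsp and Dmp1 at 0 in ROSI, Dmp1 at 0 in DMSO and Sp7 at 0 in TBT. Leukocyte and macrophage markers (8 genes) summed to between 6.42 and 23.1 CPM in any library, with Emr1 at 0 in ROSI. Endothelial markers (4 genes) summed to 2.26 to 9.36 CPM, with Cdh5 at 0 in TBT, and erythroid markers (5 genes) to 8.05 to 24.2 CPM. The genes were measured in bulk, so fewer cells of a type and less RNA per cell cannot be told apart.

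Levels of the 10 genes spanned a wide range. Per kilobase of exon, Trp53inp1 was the highest at a mean of 181 CPM per kb over the 12 libraries (range 139 to 210). Ccng1 followed at 76.1 (32.8 to 114), then Cdkn2b at 39.5 (29.3 to 52.2), Cdkn1a at 38.8 (17.9 to 77.5) and Mdm2 at 32.5 (27.7 to 37.2), whose ranges overlapped. Sesn1 stood at 23.0 (13.4 to 27.8), its highest library just above the lowest of Mdm2. Bax at 10.6 (4.33 to 13.8) and Cdkn2a at 8.16 (2.19 to 12.8) overlapped each other, and Phlda3 at 3.71 (1.87 to 5.76) had a lower mean, with a range that overlapped both. This order pools the treatments and changed between them: Cdkn1a stood at 66.6 ± 11.5 CPM per kb in ROSI, above Cdkn2b (33.9 ± 4.73) and near Ccng1 (73.5 ± 10.6), and at 22.7 ± 6.77 in TBT, where Mdm2 had 34.7 ± 2.25 and Sesn1 26.5 ± 1.37. Gdf15 was at 0.118 CPM per kb. As a measure of stray reads, 1484 genes with symbols starting Olfr, Vmn or Tas were used. These are prefixes of olfactory and other sensory receptor genes, and a gene of another kind with such a prefix would count too. They had 0.111 ± 0.0434 CPM per kb in DMSO, 0.0202 ± 0.00141 in ROSI and 0.0333 ± 0.00710 in TBT (SD, n = 4 each). Phlda3 lay 31.2 times above this level in DMSO, Bax 96.8 times and Cdkn2a 102 times, and the other 6 tested genes at least 224 times. Gdf15 lay at 0.623 times this level in DMSO, 11.5 times in ROSI and 1.59 times in TBT, on the few counts described later.

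**Figure D2:**
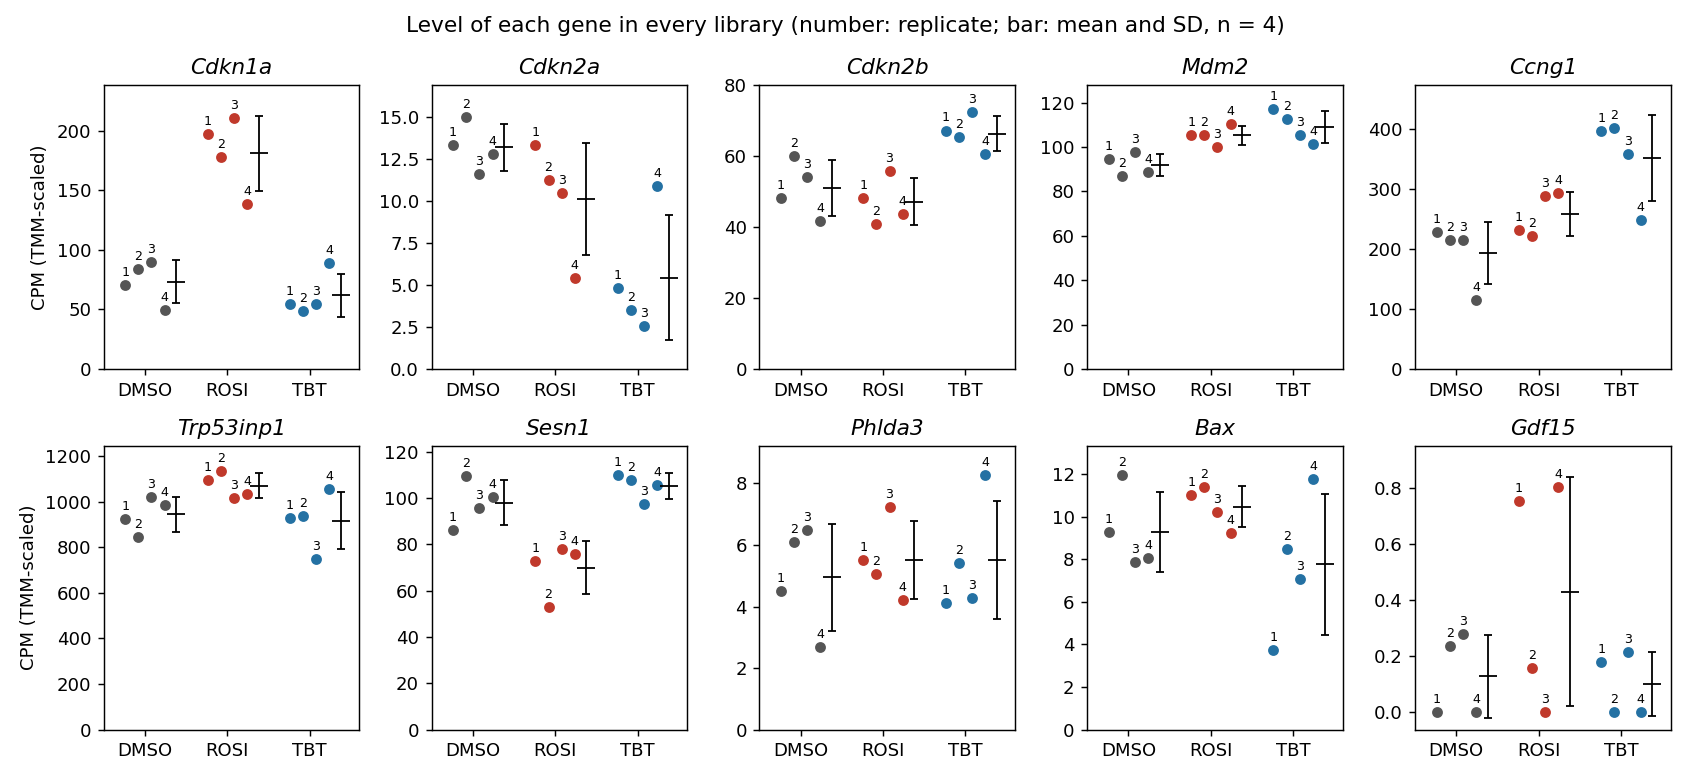
CPM of each of the 10 genes in every library by treatment (points, 1 per library, numbered by replicate; bars, group mean and SD, n = 4; vertical axes in CPM, 1 panel per gene with its own scale). The 4 ROSI libraries of Cdkn1a (138 to 211) lie above all DMSO and TBT libraries (48.6 to 89.9), and the TBT replicate 4 point of Cdkn2a (10.9) lies above the other TBT points (2.57 to 4.83).

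With rosiglitazone, Cdkn1a rose and Sesn1 fell, which is 2 of the 9 tested genes past an adjusted p of 0.05 (edgeR quasi-likelihood test, Benjamini-Hochberg adjustment over all tested genes), where 22.6% of all tested genes passed, 10.0% higher and 12.6% lower. With tributyltin against DMSO, Ccng1 rose and Cdkn2a fell, again 2 of 9, where 15.2% of all tested genes passed, 8.22% higher and 7.03% lower. With tributyltin against rosiglitazone, Sesn1 and Cdkn2b were higher and Cdkn1a lower, 3 of 9, where 23.9% of all tested genes passed, 12.8% higher and 11.1% lower. With 9 genes, these counts lie near the shares over all tested genes. At an unadjusted p under 0.05 they were 3, 4 and 5. The median log2 fold changes of the 9 genes were 0.18, 0.10 and −0.02, beside 0.01, −0.01 and 0.02 over all tested genes. Groups did not overlap for 3, 4 and 3 of the 9 genes, where 28.3%, 15.7% and 20.7% of all tested genes did not. The 3 comparisons come from 1 fit, any 2 of them share a group, and TBT against ROSI is the difference of the other 2. They are therefore not independent of each other. Without TBT replicate 4, 4 of 9 genes passed for TBT against DMSO and 6 of 9 for TBT against ROSI, where 32.6% and 38.2% of all tested genes then passed. In these fits tributyltin cannot be told apart from the Rn45s and GC difference of TBT replicates 1, 2 and 3. Without any 1 of DMSO replicate 2 and TBT replicates 1, 2 and 3, Ccng1 alone of the 9 passed for TBT against DMSO.

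**Figure D3:**
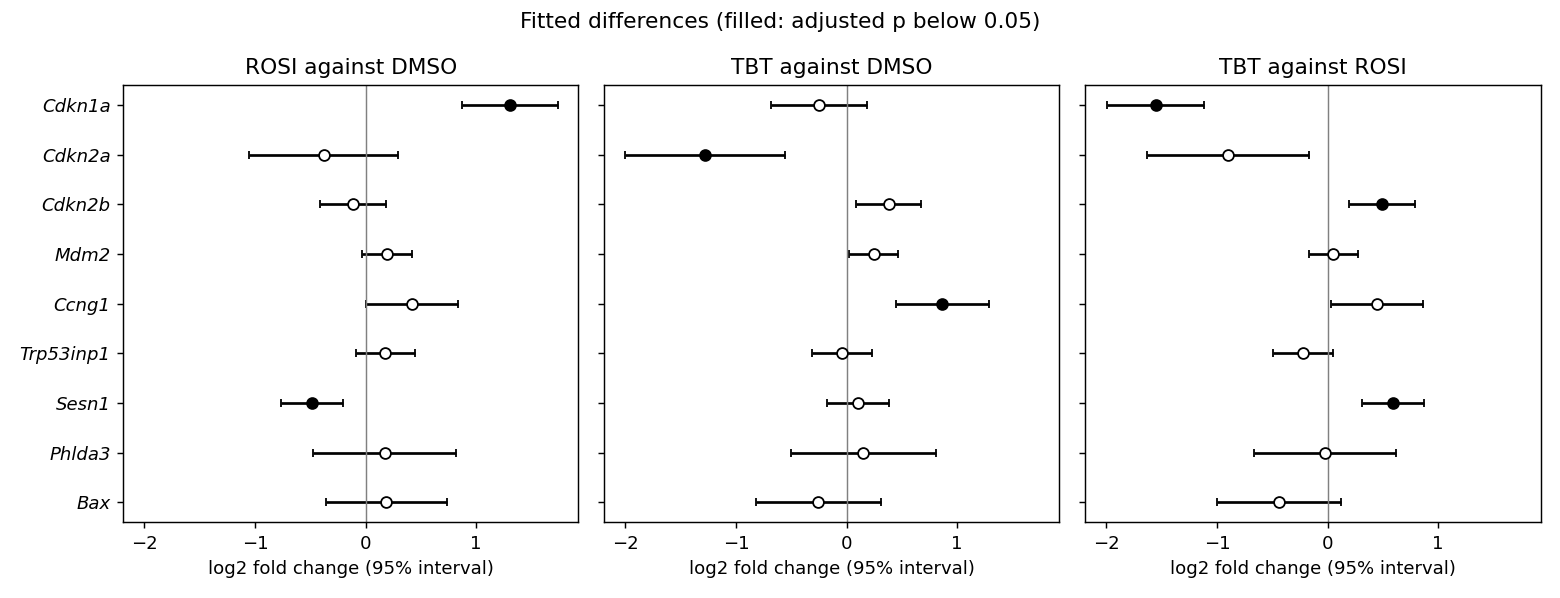
Log2 fold change with its 95% interval for the 9 tested genes in the 3 comparisons (horizontal axes, log2 fold change; filled points, adjusted p under 0.05). Cdkn1a is the point farthest to the right for ROSI against DMSO (1.30) and farthest to the left for TBT against ROSI (−1.56).

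Cdkn1a, the p21 gene, had the largest fold increase with rosiglitazone among the 9 tested genes. Its level was 70.3, 83.5, 89.9 and 49.5 CPM in DMSO replicates 1 to 4, 197, 178, 211 and 138 CPM in ROSI, and 54.3, 48.6, 54.8 and 88.9 CPM in TBT. All 4 ROSI libraries were above all 8 others, while the DMSO and TBT libraries overlapped. Group means were 73.3 ± 17.9, 181 ± 31.4 and 61.7 ± 18.4 CPM (SD, n = 4). The increase with ROSI was 2.47-fold, a log2 fold change of 1.30 ± 0.21 (SE; 95% interval 0.87 to 1.74; adjusted p = 1.6e-04, edgeR). Between TBT and DMSO the log2 fold change was −0.25 ± 0.21 (adjusted p = 0.42), with an interval of −0.69 to 0.18. Without TBT replicate 4 it was −0.46 (adjusted p = 0.052). It was −0.13 with GC-corrected offsets (adjusted p = 0.67, edgeR), and −0.27 with these and TBT replicate 4 left out (adjusted p = 0.24). TBT was lower than ROSI by a log2 fold change of −1.56 ± 0.21 (adjusted p = 5.7e-05), and of −1.78 without TBT replicate 4. Both calls held in each of 12 fits that left out 1 library, with adjusted p up to 0.0010 against DMSO and 5.0e-04 for TBT against ROSI. The adipocyte marker sums were also highest in ROSI and the stromal sums lowest, though not for every marker (Cfd, Lep and Nt5e, for example), and their part in the Cdkn1a result was not tested. The Cdkn1a exons overlap 273 bases of an antisense gene, AC167363.2, that has no row of its own, and the libraries did not mark strand.

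Cdkn2a, whose single row sums the p16 and p19Arf transcripts, was lower with tributyltin than with DMSO. It had 13.3, 15.0, 11.6 and 12.8 CPM in DMSO, 13.3, 11.2, 10.5 and 5.42 CPM in ROSI, and 4.83, 3.47, 2.57 and 10.9 CPM in TBT. TBT replicate 4 lay more than 2 times above the other TBT libraries and just below the lowest DMSO library. The means were 13.2 ± 1.40, 10.1 ± 3.34 and 5.43 ± 3.74 CPM. TBT fell against DMSO by 1.28 on the log2 scale (SE 0.34, interval −2.003 to −0.56, adjusted p = 0.020, edgeR). Leaving out DMSO replicate 2, TBT replicate 1, TBT replicate 2 or TBT replicate 3 took the adjusted p past the threshold, to 0.056, 0.059, 0.067 and 0.065. Without TBT replicate 4 the log2 fold change was −1.82 (adjusted p = 1.66e-04). ROSI differed from DMSO by −0.38 ± 0.32 (interval −1.05 to 0.29, adjusted p = 0.45). TBT differed from ROSI by −0.90 ± 0.35 (adjusted p = 0.069), and by −1.44 without TBT replicate 4 (adjusted p = 7.6e-04). Its longest transcript has a GC content of 60.2%, and with GC-corrected offsets the log2 fold changes of TBT were −1.08 against DMSO (adjusted p = 0.022) and −0.68 against ROSI (adjusted p = 0.11).

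Cdkn2b, the p15 gene next to Cdkn2a, was higher with tributyltin than with rosiglitazone. Its libraries held 48.2, 60.1, 54.2 and 41.7 CPM in DMSO, 48.1, 40.8, 55.9 and 43.7 CPM in ROSI, and 67.2, 65.2, 72.5 and 60.5 CPM in TBT. All TBT libraries lay above all DMSO and ROSI libraries. The means were 51.1 ± 7.90, 47.1 ± 6.57 and 66.4 ± 4.99 CPM. TBT was higher than ROSI by 0.49 ± 0.14 on the log2 scale (interval 0.20 to 0.79, adjusted p = 0.019, edgeR), a call lost when ROSI replicate 2, ROSI replicate 4 or TBT replicate 3 was left out (adjusted p of 0.066, 0.056 and 0.073). That difference was 0.54 without TBT replicate 4 (adjusted p = 0.0056). Against DMSO the log2 fold change of TBT was 0.38 ± 0.14 (interval 0.08 to 0.68, adjusted p = 0.074). It passed the threshold without TBT replicate 4 (0.44, adjusted p = 0.025), with GC-corrected offsets (0.57, adjusted p = 0.016) and by DESeq2 (adjusted p = 0.047). For ROSI against DMSO it was −0.11 ± 0.14 (interval −0.41 to 0.19, adjusted p = 0.64).

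Mdm2, the ubiquitin ligase and feedback inhibitor of p53, had the narrowest range of the 10 relative to its level. It had 94.8, 87.0, 97.7 and 89.0 CPM in DMSO, 106, 105, 99.99 and 110.3 CPM in ROSI, and 117, 113, 105 and 101 CPM in TBT. Every treated library lay above every DMSO library. The means were 92.1 ± 4.96, 105 ± 4.23 and 109 ± 7.07 CPM. The log2 fold changes were 0.19 ± 0.11 with ROSI (interval −0.03 to 0.42, adjusted p = 0.22, edgeR) and 0.24 ± 0.11 with TBT (interval 0.02 to 0.47, adjusted p = 0.12), and neither passed. For TBT the value passed without TBT replicate 4 (0.29, adjusted p = 0.048) and by DESeq2 (adjusted p = 0.049), but not with GC-corrected offsets (0.19, adjusted p = 0.22). TBT and ROSI differed by 0.05 ± 0.11 (interval −0.17 to 0.27).

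Ccng1, which encodes cyclin G1, a p53 target that recruits a phosphatase to Mdm2, rose with tributyltin. Its libraries held 227, 215, 214 and 115 CPM in DMSO, 231, 222, 287 and 293 CPM in ROSI, and 396, 401, 358 and 247 CPM in TBT. DMSO replicate 4 was low beside the other DMSO libraries and TBT replicate 4 was low beside the other TBT libraries. The TBT libraries were all above the DMSO libraries, and overlapped those of ROSI only through replicate 4. Means were 193 ± 52.2, 258 ± 37.1 and 351 ± 71.5 CPM. TBT was 1.82-fold higher than DMSO, a log2 fold change of 0.86 ± 0.20 (interval 0.45 to 1.28, adjusted p = 0.0095, edgeR). This call held without any 1 library (adjusted p up to 0.032), and the value was 0.68 without DMSO replicate 4 and 1.02 without TBT replicate 4. Ccng1 is GC-poor (40.8% in its longest transcript), and with GC-corrected offsets the value was 0.70 (adjusted p = 0.016). ROSI against DMSO gave 0.42 ± 0.20 (interval 0.00 to 0.84, adjusted p = 0.14), and 0.24 without DMSO replicate 4. TBT against ROSI gave 0.44 ± 0.20 (adjusted p = 0.11). That difference passed at 0.44 with an adjusted p of 0.046 once DMSO replicate 4 was left out, and at 0.59 with an adjusted p of 0.014 once TBT replicate 4 was.

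Sesn1, a stress-induced p53 target that restrains mTORC1, was lower with rosiglitazone than in either other group. It had 86.2, 109.7, 95.9 and 100.4 CPM in DMSO, 72.7, 53.1, 78.1 and 75.8 CPM in ROSI, and 110.1, 108, 97.5 and 106 CPM in TBT. Every ROSI library lay below every other library. The means were 98.1 ± 9.76, 69.9 ± 11.5 and 105 ± 5.44 CPM. ROSI fell against DMSO by 0.49 on the log2 scale (SE 0.13, interval −0.77 to −0.21, adjusted p = 0.012, edgeR), while TBT was higher than ROSI by 0.59 ± 0.13 (interval 0.31 to 0.87, adjusted p = 0.0043; 0.60 without TBT replicate 4). Both calls held without any 1 library, with adjusted p up to 0.046 and 0.016. TBT and DMSO differed by 0.10 ± 0.13 (interval −0.17 to 0.38, adjusted p = 0.62). Cdkn1a and Sesn1, both p53 targets, thus moved in opposite directions with ROSI.

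Trp53inp1, a p53-induced nuclear protein linked to autophagy and cell death, was the most abundant of the 10 and passed in no comparison. It had 925, 844, 1020.5 and 986 CPM in DMSO, 1093, 1134, 1016 and 1033 CPM in ROSI, and 929, 935, 750.4 and 1054 CPM in TBT. The 3 groups overlapped. The log2 fold changes were 0.18 ± 0.13 with ROSI (adjusted p = 0.36, edgeR), −0.04 ± 0.13 with TBT (adjusted p = 0.85) and −0.22 ± 0.13 for TBT against ROSI (adjusted p = 0.22). Trp53inp1 had the lowest GC content of the 10 (38.8%). With GC-corrected offsets TBT fell against ROSI by 0.44 (adjusted p = 0.032, edgeR), and by 0.55 with TBT replicate 4 also left out (adjusted p = 0.0029). Without TBT replicate 4 and without these offsets, the TBT values were −0.10 against DMSO and −0.29 against ROSI (adjusted p of 0.57 and 0.083).

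Bax, the pore-forming death effector of the BCL2 family, also passed in no comparison. It had 9.27, 11.9, 7.87 and 8.06 CPM in DMSO, 11.0, 11.4, 10.2 and 9.23 CPM in ROSI, and 3.75, 8.49, 7.06 and 11.7 CPM in TBT. The groups overlapped, and TBT replicate 4 was the highest TBT library. The log2 fold changes were 0.19 ± 0.26 with ROSI (interval −0.36 to 0.73), −0.25 ± 0.27 with TBT (interval −0.82 to 0.31) and −0.44 ± 0.27 for TBT against ROSI (adjusted p = 0.23, edgeR). The last was −0.70 without TBT replicate 4 (adjusted p = 0.036), and −0.19 with GC-corrected offsets (adjusted p = 0.60), where Bax is the GC-richest of the 10 (63.5%). Bax gave −0.50 for TBT against DMSO without TBT replicate 4 (adjusted p = 0.14, edgeR). Its exons overlap 192 bases of Gm45808, a same-strand gene with no row of its own.

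Phlda3, which restrains AKT signalling downstream of p53, rested on few counts, between 17 and 56 per library. It had 4.51, 6.08, 6.49 and 2.69 CPM in DMSO, 5.52, 5.06, 7.24 and 4.21 CPM in ROSI, and 4.11, 5.40, 4.28 and 8.26 CPM in TBT. Again TBT replicate 4 was the highest TBT library and DMSO replicate 4 the lowest DMSO library, and the groups overlapped. Its log2 fold changes were 0.17 ± 0.31 with ROSI (interval −0.47 to 0.82), 0.15 ± 0.31 with TBT (interval −0.51 to 0.81) and −0.02 ± 0.31 for TBT against ROSI (interval −0.67 to 0.62). The signs of all 3 turned on which library was left out.

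Gdf15, a secreted stress cytokine of the TGF-β superfamily, was close to absent. It had 0, 1, 2 and 0 counts in DMSO, 3, 1, 0 and 4 in ROSI, and 1, 0, 1 and 0 in TBT. Summed by group these were 3, 8 and 2 counts. Over the pooled totals without TMM scaling that is 0.139 CPM (exact Poisson 95% interval 0.0286 to 0.406), 0.353 CPM (0.152 to 0.695) and 0.0952 CPM (0.0115 to 0.344). The TMM-scaled group means were 0.128, 0.428 and 0.0982 CPM. The intervals of the pooled values overlap and cover counting error only. A difference in Gdf15 was not detectable at this depth.

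Trp53 itself, the gene of p53, had means of 29.8 ± 2.79 CPM (DMSO), 27.5 ± 6.65 CPM (ROSI) and 20.8 ± 1.03 CPM (TBT). All TBT libraries lay below all DMSO libraries. TBT fell against DMSO by 0.52 on the log2 scale (SE 0.17, adjusted p = 0.045, edgeR), and by 0.53 without TBT replicate 4 (adjusted p = 0.031). The Trp53 call ended without any 1 of DMSO replicates 1 to 4, ROSI replicate 3 and TBT replicates 1 to 3 (adjusted p up to 0.12), with GC-corrected offsets (−0.42, adjusted p = 0.097), with these and TBT replicate 4 left out (−0.38), by limma (−0.35), without a filter on low counts (−0.52) and with a replicate block (−0.52). With ROSI the log2 fold change was −0.12 ± 0.16 (adjusted p = 0.68).

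**Figure D4:**
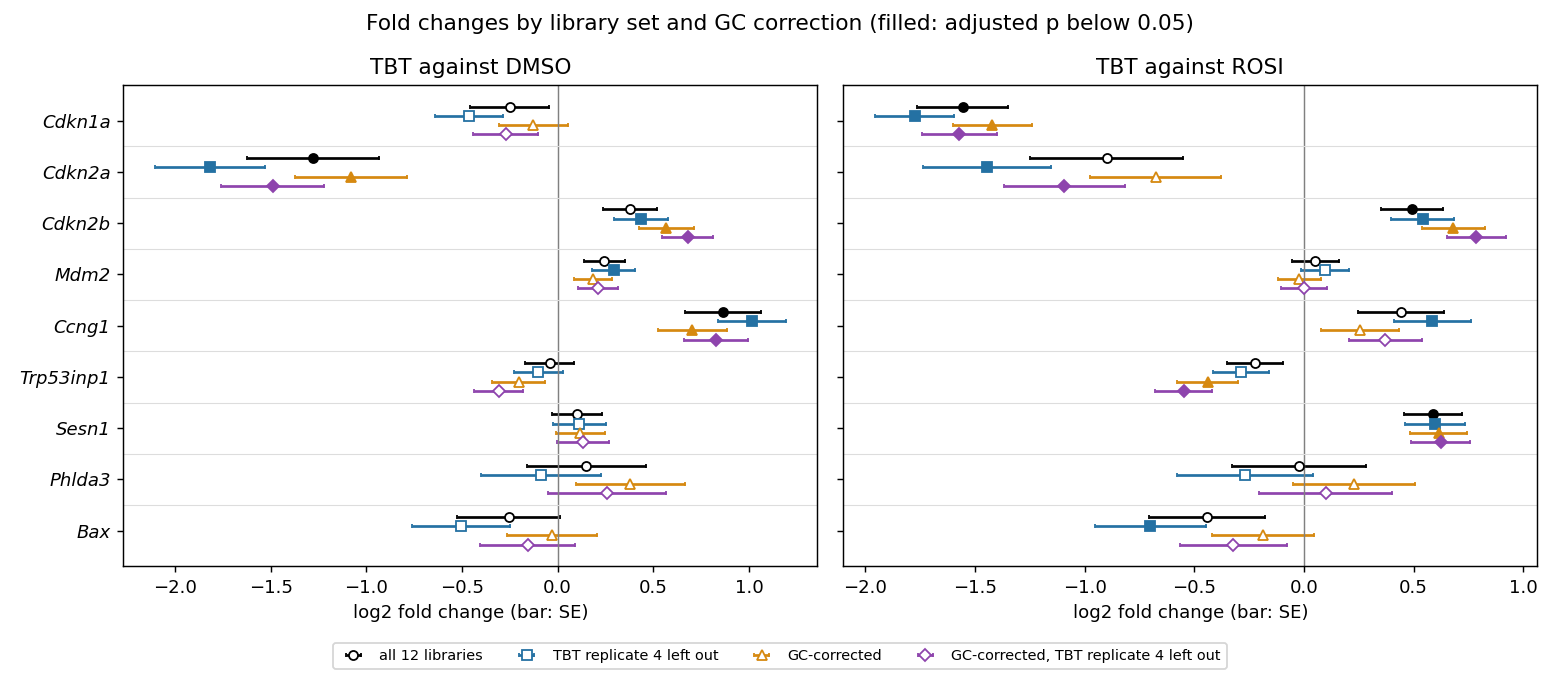
Log2 fold change with SE of the 9 tested genes for TBT against DMSO and TBT against ROSI, with all 12 libraries, without TBT replicate 4, with GC-corrected offsets, and with both (filled symbols, adjusted p under 0.05). The Ccng1 symbols for TBT against DMSO are filled in all 4 fits (0.86, 1.02, 0.70 and 0.83), as are those of Cdkn2a (−1.28, −1.82, −1.08 and −1.49).

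Counts in the 8 other lists are to be read beside the shares of all tested genes that passed. These were 22.6% for ROSI against DMSO, 15.2% for TBT against DMSO and 23.9% for TBT against ROSI. Without TBT replicate 4 the last 2 shares were 32.6% and 38.2%. Other p53 targets, a list of 26 genes of which 24 were tested, were higher with rosiglitazone in 8 cases and lower in none, with a median log2 fold change of 0.38 beside 0.01 over all tested genes. Those with the smallest p were Perp, a p53 effector of cell death (log2 fold change 1.44 ± 0.34), Sesn2, a sestrin like Sesn1 (1.17 ± 0.29), the kinase Plk3 (1.13 ± 0.27) and Dram1, a regulator of autophagy (0.67 ± 0.17). Perp rested on low levels, 1.78 ± 0.547 CPM in DMSO and 4.99 ± 1.23 CPM in ROSI. The growth arrest gene Gadd45a, named after its value was seen, rose more than Dram1 (1.05 ± 0.29). Sesn2, at 13.3 ± 5.25 CPM with DMSO, 29.5 ± 8.47 CPM with ROSI and 10.0 ± 3.91 CPM with TBT, rose where Sesn1 fell. The count was 5 without DMSO replicate 4 or ROSI replicate 4. With TBT against DMSO 1 gene of the list passed, Rrm2b, a ribonucleotide reductase subunit, at 0.91 ± 0.15 (adjusted p = 8.9e-04, edgeR). Its mean was 123 ± 24.3 CPM in TBT and 65.5 ± 5.28 in DMSO. Without TBT replicate 4 the list had 4 genes higher and 2 lower. Between TBT and ROSI, 3 genes were higher in TBT and 6 lower, and 5 and 6 without TBT replicate 4. Among the higher were Polk, a translesion polymerase (0.77 ± 0.18), Rrm2b (0.58 ± 0.15) and the death receptor gene Fas (0.70 ± 0.25), the last with an adjusted p of 0.047. The Fas call was kept without DMSO replicate 2 or TBT replicate 4 and lost in the other 10 fits without 1 library, and with GC-corrected offsets (0.59, adjusted p = 0.082). The Rrm2b call for TBT against ROSI was also lost with these offsets (0.36, adjusted p = 0.054). The lower ones included Sesn2 (−1.56 ± 0.30), Plk3 (−1.19 ± 0.27), the antiproliferative gene Btg2 (−0.997 ± 0.25) and Dram1 (−0.91 ± 0.17).

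Of p53 and 16 other genes that regulate it, 2 were higher and 1 lower with ROSI. The higher ones were the checkpoint kinase genes Chek2 (0.64 ± 0.21) and Atr (0.37 ± 0.13), and the lower one was Ppm1d, a phosphatase that opposes them (−0.50 ± 0.15). The Chek2 call ended without DMSO replicates 1, 2 or 3 or ROSI replicates 1, 2 or 3, that of Ppm1d without DMSO replicate 1 or ROSI replicates 1 or 2, and that of Atr without DMSO replicates 1, 2 or 4, ROSI replicates 1, 2 or 4 or TBT replicates 2 or 3. With TBT against DMSO Atr was higher (0.51 ± 0.13) and Trp53 lower. With GC-corrected offsets neither passed (Atr 0.35, adjusted p = 0.055). Without DMSO replicate 4 or TBT replicate 1 neither did, without DMSO replicates 1 to 3, ROSI replicate 3 or TBT replicates 2 or 3 only Atr did, and without TBT replicate 4 there were 4 higher and 2 lower. For TBT against ROSI 4 were higher and 1 lower: Atm, the damage kinase gene (0.49 ± 0.13), Ppm1d (0.50 ± 0.15), Trp53bp1 (0.41 ± 0.13) and Chek1 (0.54 ± 0.19) were higher and Chek2 lower (−0.86 ± 0.21). The Chek1 call was kept without DMSO replicates 2 or 4 or TBT replicate 4 and lost in the other 9 fits without 1 library and in 9 of 11 other alternatives, among them DESeq2 (adjusted p = 0.058) and GC-corrected offsets (0.36, adjusted p = 0.18). That of Trp53bp1 ended without DMSO replicate 3, ROSI replicates 1, 2 or 3 or TBT replicates 1, 2 or 3, and that of Ppm1d without ROSI replicates 1 or 2 or TBT replicates 1, 2 or 3. The count of 5 fell to 2 without ROSI replicates 1 or 2 or TBT replicates 1, 2 or 3, to 3 without DMSO replicate 3 or ROSI replicate 3, and was 8 without TBT replicate 4. The medians of this list were −0.12, 0.08 and 0.14 in the 3 comparisons. With 17 genes, its counts lie near the shares over all tested genes (22.6%, 15.2% and 23.9%).

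Genes of S phase and mitosis were lower with rosiglitazone in 12 of 17 tested cases and higher in none, with a median log2 fold change of −1.12. Mki67, the proliferation marker, had 63.3 ± 11.6 CPM (DMSO), 13.5 ± 5.29 CPM (ROSI) and 43.7 ± 18.3 CPM (TBT). Its log2 fold change with ROSI was −2.23 ± 0.30, that of Ccnb1 (cyclin B1) −2.40 ± 0.37, that of the checkpoint kinase gene Bub1 −2.27 ± 0.37 and that of the topoisomerase gene Top2a −1.68 ± 0.18. In ROSI, Ccnb1 (0.874 ± 0.237 CPM) and Bub1 (1.63 ± 0.510 CPM) were at low levels. With TBT against DMSO 3 were lower and none higher, with a median of −0.30: Tyms, thymidylate synthase (−0.96 ± 0.15), Bub1 (−1.01 ± 0.33) and the replication licensing gene Mcm2 (−0.53 ± 0.16). The Bub1 call (adjusted p = 0.049, edgeR) was kept without TBT replicates 1 or 4 and lost in the other 10 fits without 1 library, as well as by DESeq2 (adjusted p = 0.051) and from the 2 groups alone. That of Mcm2 ended without DMSO replicates 1, 3 or 4 or TBT replicates 1 or 3 and with GC-corrected offsets (−0.47, adjusted p = 0.057), while that of Tyms held without any 1 library. Without TBT replicate 4 there were 4 lower and 1 higher. Compared with ROSI, TBT had 9 higher and 2 lower genes, with a median of 0.94. Ccnb1 (1.78 ± 0.39), Mki67 (1.70 ± 0.30), Top2a (1.46 ± 0.18) and Rrm2 (1.03 ± 0.21) were among the higher, and Tyms (−0.68 ± 0.15) and Mcm2 (−0.63 ± 0.16) were the lower ones. Without TBT replicate 3 the counts were 5 and 2, and without TBT replicate 4 they were 10 and 2. The summed stromal markers were lowest in ROSI too, and their part in these counts was not tested.

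Among 9 tested G1 cyclins, CDKs and E2F genes, Ccnd1 (cyclin D1) fell with ROSI (log2 fold change −1.69 ± 0.16) and Ccnd2 (cyclin D2) rose (0.51 ± 0.12). Ccnd1 had 78.3 ± 14.9 CPM (DMSO), 24.1 ± 2.47 CPM (ROSI) and 44.9 ± 7.70 CPM (TBT), and it also fell with TBT against DMSO (−0.80 ± 0.16, adjusted p = 0.0038, edgeR). Cdk4, the partner of the D cyclins and the kinase that p15 and p16 inhibit, was lower with TBT against DMSO (−0.94 ± 0.27, adjusted p = 0.026), which ended without DMSO replicates 1 or 2 or TBT replicates 1, 2 or 3 and was −1.41 without TBT replicate 4. Compared with ROSI, TBT had Ccnd1 (0.89 ± 0.16) and Ccne2 (0.61 ± 0.19) higher and Cdk4 lower (−0.94 ± 0.27), of which Ccnd1 held without any 1 library. The Ccne2 call ended without ROSI replicates 1, 2, 3 or 4 or TBT replicate 1, from the 2 groups alone and with GC-corrected offsets (0.33, adjusted p = 0.19). That of Cdk4 ended without ROSI replicate 2 or TBT replicates 1, 2 or 3, and its value was −1.42 without TBT replicate 4. The medians of this list were −0.21, −0.35 and 0.17. Of 7 other CDK inhibitors and pocket proteins, Rb1, the retinoblastoma gene, rose with ROSI (0.58 ± 0.14), and none passed with TBT against DMSO by edgeR, where 3 had an unadjusted p under 0.05, DESeq2 called 2, limma called 0 and the fit without TBT replicate 4 called 3. For TBT against ROSI Cdkn2c (p18) was lower (−0.54 ± 0.15) and Rbl2 higher (0.54 ± 0.16), the last call ending without ROSI replicates 1 or 2 or TBT replicates 1 or 3. The Cdkn2c call ended with GC-corrected offsets (−0.33, adjusted p = 0.11). The medians were −0.06, −0.27 and −0.16. With so few genes, the counts of both lists lie near the shares over all tested genes (22.6%, 15.2% and 23.9%).

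The ATF4 list holds genes of the integrated stress response, which shares several targets with p53. With ROSI 8 of its 9 genes rose and none fell, with a median log2 fold change of 1.28. Trib3, a pseudokinase, rose by 2.24 ± 0.39, Atf3 by 1.82 ± 0.26, Chac1, which degrades glutathione, by 1.77 ± 0.32 and Vldlr, a lipoprotein receptor, by 1.42 ± 0.23. Atf3 had 4.92 ± 1.36 CPM (DMSO), 17.5 ± 5.43 CPM (ROSI) and 2.70 ± 0.719 CPM (TBT). With TBT against DMSO none of the 9 passed by edgeR (median −0.15), while 3 had an unadjusted p under 0.05, DESeq2 and limma each called 1 and the fit without TBT replicate 4 called 1 higher and 1 lower. For TBT against ROSI 8 of 9 were lower (median −1.44), among them Atf3 (−2.67 ± 0.28), Chac1 (−2.51 ± 0.33), Trib3 (−2.39 ± 0.40) and Asns, asparagine synthetase (−1.44 ± 0.25). The counts of 8 held without any 1 library.

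In the BCL2 family (10 tested), Bmf, a death-promoting member, was lower with ROSI (−1.09 ± 0.23), no gene passed with TBT against DMSO by edgeR (1 at an unadjusted p under 0.05, 1 by DESeq2, 1 by limma and 4 without TBT replicate 4), and Bmf was higher with TBT than ROSI (0.83 ± 0.23). The last call ended without ROSI replicate 2, and without TBT replicate 4 that comparison had 3 higher and 3 lower. The medians were 0.00, −0.21 and −0.09. Of 9 tested senescence-associated genes, 3 were lower with ROSI: the chemokine gene Ccl2 (−1.96 ± 0.40), Igfbp7 (−0.998 ± 0.21) and Glb1, the gene of the lysosomal β-galactosidase (−0.56 ± 0.17). The Glb1 call with ROSI ended without DMSO replicates 1 or 2 or ROSI replicates 2, 3 or 4, and the list had 1 higher and 4 lower without DMSO replicate 3. With TBT against DMSO Igfbp3 was higher (1.37 ± 0.18) and Ccl2 (−1.77 ± 0.40) and Glb1 (−0.72 ± 0.17) lower, and without TBT replicate 4 there were 2 higher and 3 lower. Igfbp3 had 209 ± 57.6 CPM (DMSO), 279 ± 49.0 CPM (ROSI) and 539.9 ± 55.4 CPM (TBT). For TBT against ROSI Igfbp7 (1.28 ± 0.21) and Igfbp3 (0.95 ± 0.18) were higher. The medians of the senescence list were −0.56, −0.31 and 0.23. The counts of both lists stand beside shares of 22.6%, 15.2% and 23.9% over all tested genes.

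**Figure D5:**
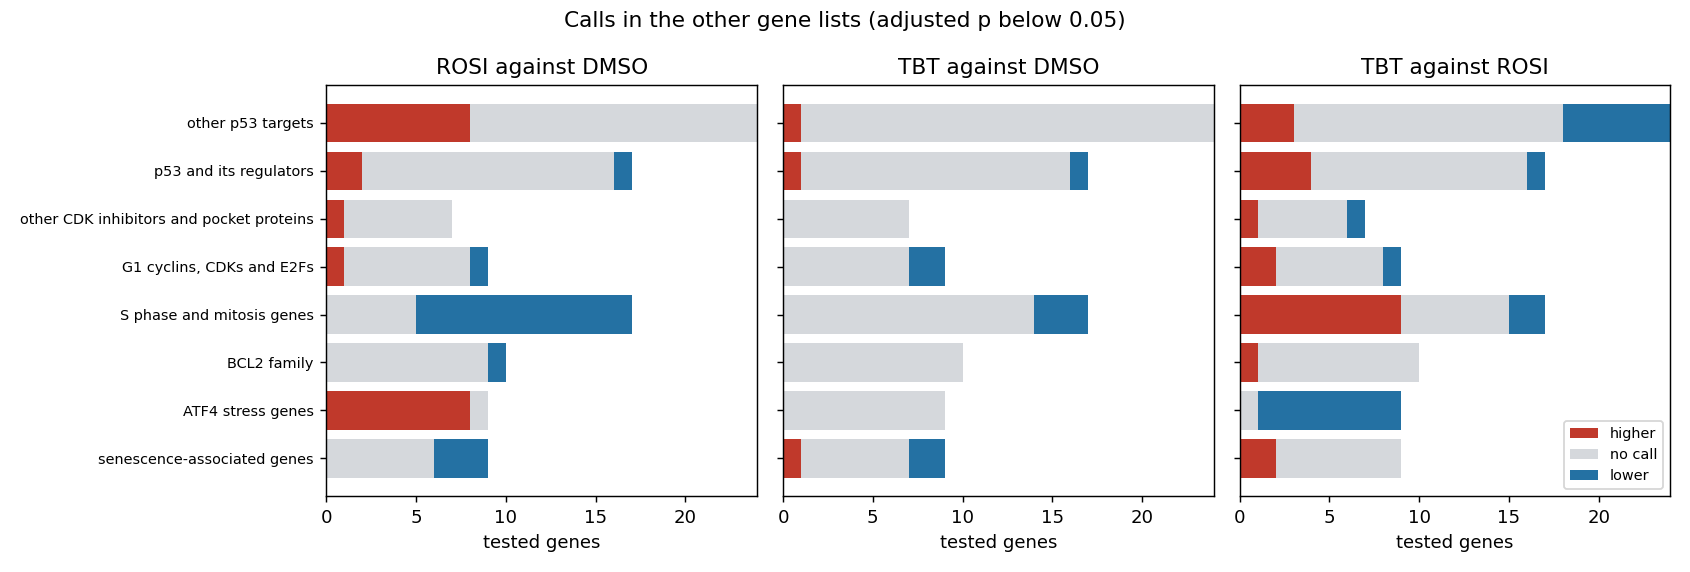
Number of tested genes called higher, called lower or not called in each of the 8 other gene lists for the 3 comparisons (horizontal axes, tested genes; threshold, adjusted p under 0.05). The ROSI panel has 8 of 24 other p53 targets and 8 of 9 ATF4 genes higher and 12 of 17 S phase and mitosis genes lower.

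The genes whose log2 CPM followed Cdkn1a most closely over the 12 libraries were Slc25a39, a mitochondrial carrier (Pearson r = 0.976), Hadha, an enzyme of fatty acid oxidation (0.966), and Mcur1, a regulator of mitochondrial calcium uptake (0.963). Hadha had means of 79.0 CPM (DMSO), 169 CPM (ROSI) and 74.5 CPM (TBT). It was picked for its correlation with Cdkn1a, so the shared order of the groups is no separate result. Those nearest to Mdm2 were Atr (0.958), the splicing factor gene Rbm39 (0.952) and the circadian gene Clock (0.952). These coefficients describe 12 libraries that fall into 3 treatments. The libraries differ in depth and base composition, and the part of these differences in the coefficients was not tested.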

How the data were processed

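RNA from 12 samples was depleted of ribosomal RNA and sequenced as 50 nt single reads on a SOLiD instrument, from libraries that do not mark strand, per the labels' protocols. The authors deposited raw counts per gene symbol and a table of regularized log2 expression values. The submitters' processing notes name mm9, FastQC, SAMtools and DESeq2. For the aligner, the counting tool and the annotation, the entry is: not given in the sources used here.

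Counts were tested with edgeR 4.0.16 (R 4.3.3): filterByExpr, TMM scaling, 1 quasi-likelihood model of all 12 libraries, and Benjamini-Hochberg adjustment over 12323 genes (threshold 0.05). SEs were derived from each log2 fold change and its F statistic. Alternatives were other scalings and filters, DESeq2 1.42.0, limma 3.58.1 on the deposited log2 values, the 2 groups alone, a replicate block, each library left out, and, chosen after seeing the data, GC-corrected offsets with and without TBT replicate 4. The procedure was tested on simulated data in which 200 genes were changed. The comparisons of the data called 1879 to 2940 genes, and Benjamini-Hochberg adjustment sets a stricter cut-off on p where fewer genes change. The shares that follow describe the simulation and need not hold for the data. Of planted 1.5-fold changes, 12.7% (ROSI against DMSO), 10.4% (TBT against DMSO) and 17.6% (TBT against ROSI) were called. At 2-fold these were 65.5%, 67.2% and 68.3%. False calls were 11 of 117, 8 of 126 and 7 of 128, each a share above the threshold of 0.05. A gene without a call may still have changed by 1.5-fold.

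Exon lengths and GC contents came from GENCODE vM21 (GRCm38) and starts from RefSeq (GRCm38.p6), matched by symbol. The members and lists were chosen with earlier results of these data known. All 10 members are named, and from each list up to 4 genes per direction and comparison with the smallest p past the threshold, plus Trp53. For Cdkn1a and Mdm2 the 3 genes with the highest Pearson r are named. No library pair agreed within sampling noise. Tigar, Cop1 and Adgre1 stand in the table under the older symbols 9630033F20Rik, Rfwd2 and Emr1.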

Additional observations from a re-analysis of the deposited data

Results flagged for a closer look

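In groups of 4 libraries, 1 library was flagged where its gap to the nearest other library exceeded 0.829 of the group's range (Dixon's test), which chance gives in about 1 in 20 groups. Of 27 groups (9 genes in 3 treatments), 2 were flagged. Cdkn1a in TBT replicate 4 stood at 88.94 CPM, against 48.63 to 54.76 CPM in the other 3 TBT libraries, a gap of 0.848 of the range. Ccng1 in DMSO replicate 4 stood at 115.1 CPM, against 214 to 227.4 CPM in the other 3 DMSO libraries, a gap of 0.881 of the range.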

How the results depend on the processing

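The number of the 9 tested genes called for ROSI against DMSO was 2 in every fit that left out 1 library and 2 to 3 under the other alternatives. For TBT against DMSO it was 4 by DESeq2 and 1 to 4 without 1 library, and for TBT against ROSI 5 with GC-corrected offsets and TBT replicate 4 left out, and 2 to 6 without 1 library. Over all genes, TBT against DMSO gave 1879 calls, 1160 with the replicate block, 1199 from the 2 groups alone, 3524 with GC-corrected offsets and TBT replicate 4 left out, and 1019 to 4124 without 1 library. The count for TBT against ROSI was 2940, and 1732 to 4826 without 1 library. Upper-quartile scaling turned 1013 higher and 866 lower calls for TBT against DMSO into 748 and 1143. Of the members' log2 fold changes under alternatives, 585 kept direction and call, 18 gained a call, 7 lost one and 11 changed sign. Reversed values were all small: Mdm2 for TBT against ROSI −0.0203 with GC-corrected offsets; Phlda3 for TBT against ROSI 0.0177 with the replicate block, 0.23 with GC-corrected offsets and 0.10 with these and TBT replicate 4 left out, and −0.27 to 0.13 without 1 library. Without 1 library the log2 fold change of Phlda3 was −0.0485 (without DMSO replicate 4) to 0.38 for ROSI and −0.0873 (without TBT replicate 4) to 0.33 for TBT against DMSO, that of Trp53inp1 for TBT against DMSO −0.10 to 0.0338 (the latter without TBT replicate 3), and that of Trp53 for ROSI against DMSO −0.22 to 0.0427 (the latter without ROSI replicate 4). Of 184 counts of called genes in the 8 other lists per comparison, 10 (ROSI against DMSO), 58 (TBT against DMSO) and 26 (TBT against ROSI) moved by more than 1.5 times. Among them, 5 S phase and mitosis genes were lower with ROSI where a mean of at least 5 CPM was required, since fewer were tested. The other causes of these changes were not tested. The labels state no pairing of same-numbered libraries. The correlations of their deviations ran from −0.517 to 0.185, 3 of 12 were over 0.1, and 0 of 12 libraries correlated best with their own number. Whether same-numbered libraries shared a batch cannot be told from these values, since groups are small and TBT replicate 4 differed from its group. With the replicate block the members called stayed at 2, 2 and 3. Low counts limit Phlda3 and Gdf15. They also limit list genes such as Perp, Ccnb1 and Bub1. At the smallest, the log2 fold changes of these with ROSI were 0.51, −0.68 and −0.89 under the other alternatives. These include limma on the deposited regularized log2 values, which are shrunken at low counts. Sizes from limma are therefore not on the scale of the edgeR values.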
